A study of Homo sapiens with 2 samples.

Results

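The cytochrome P450 genes of Huh7 cells were examined after knockdown of BRF2. The members were the genes of the deposited table with a CYP symbol made of a family number, a subfamily letter and a gene number, other than CYP51A1 and genes described as pseudogenes. They numbered 54 of the 61541 genes in the table. Huh7 is an established human hepatocellular carcinoma cell line, and this one line was the only model used. Huh7-NC cells received a negative control siRNA and Huh7-si cells received an siRNA against BRF2, a subunit of the initiation factor of RNA polymerase III, and total RNA of each was sequenced. There was 1 library in each condition, so no difference between the conditions has a replicate check, and which of the study's BRF2 siRNAs the Huh7-si library received is not given in the sources used here.

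P450 enzymes are heme proteins that insert an oxygen atom from molecular oxygen into a substrate. Most sit in the endoplasmic reticulum and take their electrons from NADPH through POR, some with the help of cytochrome b5, and the mitochondrial ones take them through FDXR and ferredoxin. In the liver they clear drugs and other foreign compounds, and they make or break down bile acids, steroids, retinoic acid, vitamin D and oxygenated fatty acids.

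The estimated counts summed to 22852648 reads in Huh7-NC, the control, and 22089016 in Huh7-si, the knockdown. The knockdown was examined first. BRF2 had 1281 reads in the control and 364 in the knockdown, a level 70.6% lower (log2 fold change -1.77, 95% interval -1.94 to -1.60). Levels are given as TPM, the deposited measure of abundance per length, and changes as the log2 ratio of CPM, the reads of a gene per 1000000 reads of the library, in Huh7-si against Huh7-NC. A gene was called higher or lower when the fold was at least 2 and the unadjusted p of a two-sided exact binomial test on its reads was under 0.05. That test and the 95% Clopper-Pearson intervals compare these 2 libraries and not the conditions, and they cover counting error only. A count of 0 allows up to 3 reads, or 0.131 CPM (control) and 0.136 CPM (knockdown). All 10 hepatocyte markers had reads, from 76.6 to 3957 TPM in Huh7-NC and from 107 to 4077 TPM in Huh7-si, and they moved both ways. APOB was higher (20889 and 41399 reads, log2 1.04), but TMM scaling took it to 0.81, under the threshold. APOA1 had 15460 and 8417 reads (log2 -0.83) and passed as lower only with TMM scaling (-1.05). Once the median change of similarly long genes was subtracted, APOB was at 0.36 and APOA1 at -0.66, and neither was called. Of 11 markers of leukocytes, endothelial, stellate and biliary cells, DCN and LRAT were at 0 and PTPRC, VWF and CDH5 were at or under 0.05 TPM in both libraries. Others were detected, with CD68 at 8.30 TPM in Huh7-NC and 10.7 TPM in Huh7-si, and PECAM1 at 0.92 and 1.58 TPM. KRT7 had 0 and 3 reads. The summed level of the 11 markers was 627 TPM in Huh7-NC and 626 TPM in Huh7-si, nearly all of it LYZ and KRT19. COL1A1 alone of them was called higher (1.02 to 3.81 TPM). The part of these markers in the P450 values was not tested, and in bulk RNA fewer cells of a type and less RNA per cell cannot be told apart.

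P450 transcripts made up a larger part of the RNA in Huh7-si. Their summed level was 147 TPM in Huh7-NC and 258 TPM in Huh7-si, a ratio of 1.76, and in CPM it was 266 and 409. A few genes held most of it, since the 5 most abundant members accounted for 65.8% of the summed TPM in Huh7-NC and 69.9% in Huh7-si. Without CYP1A1, CYP26B1, CYP4F12 and CYP3A5, the remaining members summed to 80.1 TPM in Huh7-NC and 96.3 TPM in Huh7-si.

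Reads were found for 41 of the 54 members. The 13 members without a read in either library were CYP1A2, CYP2A6, CYP2A13, CYP2F1, CYP3A43, CYP4A22, CYP4B1, CYP4F11, CYP4X1, CYP4Z1, CYP7A1, CYP11B1 and CYP11B2, among them the enzyme that starts the classic route of bile acid synthesis (CYP7A1) and the enzymes of the last steps of cortisol and aldosterone synthesis (CYP11B1 and CYP11B2). Another 12 members had 1 to 9 reads over both libraries, and 29 had at least 10. At 1 TPM or more stood 15 members in Huh7-NC and 19 in Huh7-si.

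In Huh7-NC, CYP1A1 (26.1 TPM) and CYP27A1 (26.1 TPM) led, with counting intervals that overlapped. CYP26B1 (19.4 TPM), CYP4F12 (14.6 TPM) and CYP20A1 (10.3 TPM) followed, each apart from its neighbours beyond counting error. The next 4, CYP2J2, CYP4F3, CYP2R1 and CYP3A5, lay between 6.41 and 7.94 TPM, and within these 4 no gene could be told from the next beyond counting error. In Huh7-si the order was CYP1A1 (59.7 TPM), CYP26B1 (44.7 TPM), CYP4F12 (33.7 TPM), CYP3A5 (23.8 TPM) and CYP27A1 (18.7 TPM), all apart from their neighbours. CYP27A1 therefore stood at rank 2 in Huh7-NC and rank 5 in Huh7-si, and CYP3A5 at rank 9 and rank 4. These intervals hold the counting error of 1 library each and no biological spread.

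**Figure D1:**
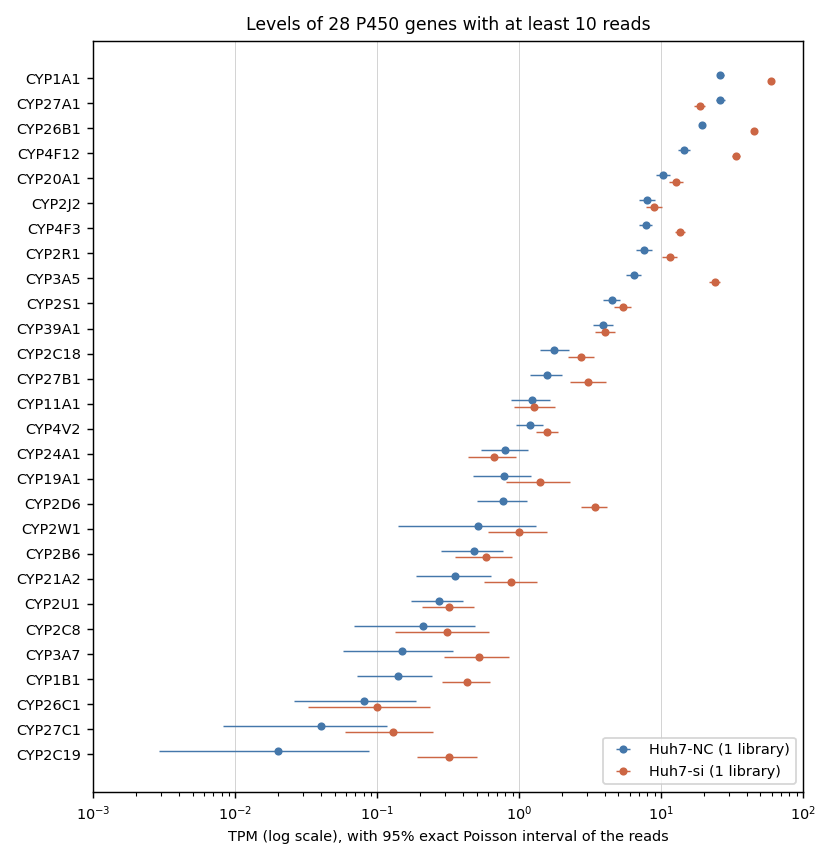
Levels of 28 P450 genes with at least 10 reads over both libraries, in TPM on a log axis, with 1 library per condition and bars for the 95% exact Poisson interval of the reads. CYP1A1, CYP26B1, CYP4F12 and CYP3A5 lie to the right in Huh7-si, CYP27A1 lies to the left, and genes under 1 TPM have wide intervals.

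Of the 41 members with reads, 9 (22.0%) were called higher in Huh7-si and 0 were called lower, against 10.4% and 1.02% of the 26379 genes with reads. Among them were CYP1B1, CYP2C19, CYP2D6, CYP3A5, CYP3A7, CYP4F12, CYP46A1 and CYP2W1. With at least 10 reads over both libraries, 8 of 29 members (27.6%) were higher and 0 lower, against 13.0% and 1.19% of 17955 genes. The median log2 fold change was 0.44 over these 29 members and 0.21 over all genes with as many reads. The ratio was above 1 for 23 members and below 1 for 6, but only 18 stayed above 1 with edgeR's TMM scaling. The interval lay wholly above 0 for 12 members, wholly below 0 for 1 (CYP27A1), and included 0 for 16.

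Most of the 9 genes rested on few reads. CYP2D6, CYP3A5 and CYP4F12 alone had at least 100 reads over both libraries, and CYP2C19, CYP2D6 and CYP3A5 alone had an interval that lay wholly past a 2-fold change. TMM scaling lowered every log2 fold change by 0.22 and kept 5 of the 9, among them CYP2C19, CYP2D6, CYP3A5 and CYP2W1. After subtraction of the median change of genes of like length, 6 were higher (those 5 and CYP4F12) and 1 was lower (CYP7B1, with 7 reads in the control and 2 in the knockdown). The share of all genes called under these alternatives was not computed.

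**Figure D2:**
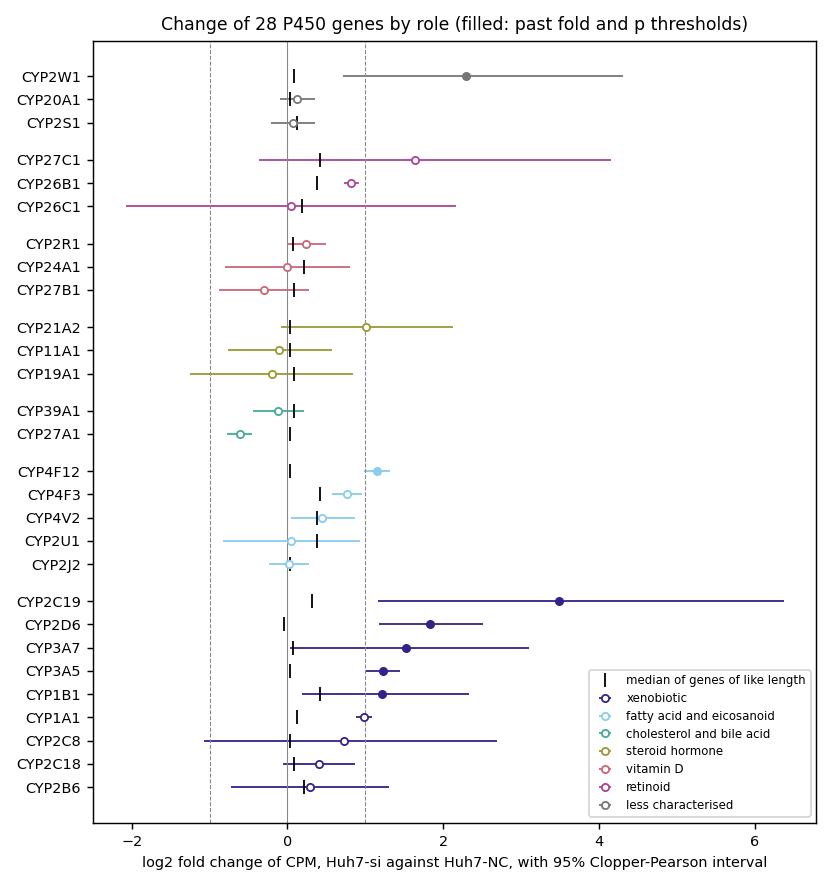
Log2 fold change of CPM in Huh7-si against Huh7-NC for 28 P450 genes with at least 10 reads, coloured by role, with 95% Clopper-Pearson intervals, dashed lines at a 2-fold change and black ticks at the median change of genes of like length. The 7 filled points passed the fold and p thresholds, 5 of them in the xenobiotic group, and none of the points passed on the lower side.

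The xenobiotic group held 17 members, of which 12 had reads and 10 had at least 10 reads. In this group 6 genes were higher and 0 lower, beside 13.0% and 1.19% of all genes with at least 10 reads, and all 10 ratios were above 1, with a median log2 fold change of 1.21. CYP1B1 and CYP3A7 were no longer called with TMM scaling, and CYP2C19 alone was called with a coefficient of variation of 0.4 assumed in the exact test of edgeR. The summed level was 37.0 TPM in Huh7-NC and 93.4 TPM in Huh7-si, a ratio of 2.52, and the group's share of all P450 transcripts was 25.3% and 36.2%. By summed CPM the ratio was smaller, at 2.04.

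CYP1A1, which oxidizes polycyclic aromatic hydrocarbons and is the best known target of the aryl hydrocarbon receptor, had the highest TPM of all members in both libraries. It had 1173 reads in the control and 2237 in the knockdown, or 26.1 and 59.7 TPM. The fold of CPM was 1.97 (log2 0.98, 0.88 to 1.08), just under the threshold, so CYP1A1 was not called, although its level more than doubled on the TPM scale (log2 1.19). With TMM scaling the log2 value was 0.76. CYP1B1, which acts on the same hydrocarbons and on estradiol, had 12 and 27 reads (0.14 and 0.43 TPM) and was higher (log2 1.22, 0.19 to 2.33). TMM scaling brought it to 0.99, under the threshold. Its exons overlap those of CYP1B1-AS1 (8.06 and 12.0 reads) and RMDN2 (86 and 72 reads), both on the other strand. CYP1B1-AS1 holds 8.71% of the 50-base stretches of CYP1B1 transcripts. Whether the counting used strand is not given in the sources used here. CYP1A2, the liver's caffeine oxidase, was at 0 in both libraries.

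CYP1A1 and CYP1A2 lie next to each other on chromosome 15 and are transcribed away from each other. In GRCh38 (GENCODE release 29), CYP1A1 spans chr15:74719542-74725610 on the minus strand and CYP1A2 spans chr15:74748844-74756202 on the plus strand. Their promoters are shown because one neighbour had the highest P450 level and the other had no reads. Each window runs from 250 bases before to 50 bases after the RefSeq start in GRCh38.p14, 5′ to 3′ on the gene's strand, at chr15:74725479-74725778 (minus) for CYP1A1 and chr15:74748595-74748894 (plus) for CYP1A2. Capitals mark matches on either strand to TATAAA, to GCGTG (the core that the aryl hydrocarbon receptor binds), to AGGTCA or AGTTCA (partial sites of nuclear receptors), to CCAAT and to TTGCNNCAA (the C/EBP motif).
CYP1A1: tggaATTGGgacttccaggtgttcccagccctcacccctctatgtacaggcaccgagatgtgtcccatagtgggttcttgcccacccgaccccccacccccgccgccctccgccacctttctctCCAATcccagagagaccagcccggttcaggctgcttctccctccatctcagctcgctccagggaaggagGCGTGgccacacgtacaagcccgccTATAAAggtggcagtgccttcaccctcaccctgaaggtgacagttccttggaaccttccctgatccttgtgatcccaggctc
CYP1A2: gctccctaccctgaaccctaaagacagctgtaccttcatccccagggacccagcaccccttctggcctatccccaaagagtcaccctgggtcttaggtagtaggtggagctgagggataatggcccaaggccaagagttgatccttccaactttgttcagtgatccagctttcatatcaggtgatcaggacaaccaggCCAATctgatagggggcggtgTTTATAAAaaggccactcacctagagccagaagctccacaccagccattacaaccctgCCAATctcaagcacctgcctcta

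The CYP1A1 window held TATAAA from 32 bases before the start, GCGTG from 57 bases before it, and CCAAT from 246 bases (on the other strand, as ATTGG) and 126 bases before it. In the CYP1A2 window, TATAAA stood 29 bases before the start and overlapped a match on the other strand from 31 bases before it, CCAAT stood 52 bases before and 27 bases after the start, and no GCGTG was found. Of the 249 bases that align between these windows, 158 (63.5%) were identical. RefSeq windows were matched for 38 members, with 51 windows in all. TATAAA was in 35.3% of them and in 11.5% of all 35116 windows, GCGTG in 23.5% and 36.5%, AGGTCA in 27.5% and 13.8%, AGTTCA in 11.8% and 10.4%, and CCAAT in 49.0% and 34.6%. TTGCNNCAA was in 0 member windows and in 1.98% of all windows. These matches are letters in a window and do not show binding. The shares count windows and not genes, and some members, such as CYP19A1, have several windows. CYP1B1, CYP2D6, CYP4F12 and CYP46A1, which were called higher, had no window.

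The CYP3A genes lie in one cluster on chromosome 7 and encode the enzymes that clear the largest number of drugs. CYP3A5 had 248 reads in the control and 562 in the knockdown (6.41 and 23.8 TPM). It was higher by a log2 fold change of 1.23 (1.01 to 1.45, exact binomial p = 3.3e-31), a value that TMM scaling brought down to the threshold itself. The rise on the TPM scale was larger, at 1.89. CYP3A4, the main adult liver enzyme, had 3 reads and 1 read, and CYP3A43 had none. CYP3A7, the form of fetal liver, had 5.77 and 16 reads (0.15 and 0.52 TPM) and was higher (log2 1.52, 0.04 to 3.11). Its readthrough gene CYP3A7-CYP3A51P, which shares 38.6% of the 50-base stretches of CYP3A7 transcripts, had 14.2 reads in the control and 0 in the knockdown. Summed, the pair had 20 and 16 reads (log2 -0.27, -1.32 to 0.75), so the call of CYP3A7 rests on how reads were divided between them. This sum was added after the values were seen.

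The promoters of CYP3A5 and CYP3A7 are shown as a pair of close relatives at very different levels. CYP3A5 spans chr7:99648194-99680026 and CYP3A7 spans chr7:99684957-99735196, both on the minus strand. The windows are chr7:99679947-99680246 and chr7:99735147-99735446 of GRCh38.p14, both on the minus strand, with capitals as above.
CYP3A5: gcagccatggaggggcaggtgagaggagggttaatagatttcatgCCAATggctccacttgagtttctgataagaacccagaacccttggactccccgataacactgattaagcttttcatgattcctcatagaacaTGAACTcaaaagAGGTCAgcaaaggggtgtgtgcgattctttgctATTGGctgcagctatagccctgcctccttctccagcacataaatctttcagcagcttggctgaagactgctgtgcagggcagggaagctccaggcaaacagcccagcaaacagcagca
CYP3A7: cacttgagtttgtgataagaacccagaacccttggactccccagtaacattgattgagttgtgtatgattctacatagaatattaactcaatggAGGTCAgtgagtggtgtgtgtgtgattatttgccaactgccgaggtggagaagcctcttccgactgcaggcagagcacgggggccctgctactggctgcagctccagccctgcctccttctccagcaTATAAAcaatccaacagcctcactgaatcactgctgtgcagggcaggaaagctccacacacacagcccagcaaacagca

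Over the 242 bases that align, 204 (84.3%) were identical. The CYP3A5 window held AGGTCA from 101 bases before the start and AGTTCA, on the other strand, from 113 bases before it, with CCAAT matches from 205 and 68 bases before it. The CYP3A7 window held AGGTCA from 156 bases before the start and TATAAA from 29 bases before it. TATAAA was not among the letters of the CYP3A5 window.

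CYP2C19, which activates clopidogrel, had 1.66 reads in the control and 18.0 in the knockdown (0.02 and 0.32 TPM), a fold of 11.2 with an interval on the log2 scale of 1.16 to 6.37. Nearly the whole of that ratio rests on the low count in Huh7-NC, and 49.1% of the 50-base stretches of CYP2C19 transcripts occur in other genes, the readthrough gene AL583836.1 alone holding 36.2%. CYP2C18, a neighbour of CYP2C19 on chromosome 10, had 71.8 and 92 reads (1.77 and 2.73 TPM) and was not called (log2 0.41, -0.06 to 0.87). CYP2C8, which oxidizes paclitaxel, had 5 and 8 reads and was not called.

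CYP2D6, which converts codeine to morphine, lies on chromosome 22 (chr22:42126499-42130906, minus strand). It had 26 reads in the control and 89.0 in the knockdown (0.77 and 3.40 TPM) and was higher by a log2 fold change of 1.82 (1.18 to 2.51, exact binomial p = 8.4e-10). Its neighbour CYP2D7, not a member because it is described as a pseudogene and named here after its values were seen, shares 31.9% of the 50-base stretches of CYP2D6 transcripts and had 17 and 79.1 reads. Their sum, 43 and 168 reads, gave a log2 fold change of 2.02 (1.52 to 2.53), so the direction did not depend on how reads were divided between them. CYP2B6, which oxidizes efavirenz, had 17 and 20 reads (log2 0.28, -0.72 to 1.31), and CYP2E1, the ethanol-oxidizing form, had 4 and 5 reads.

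**Figure D3:**
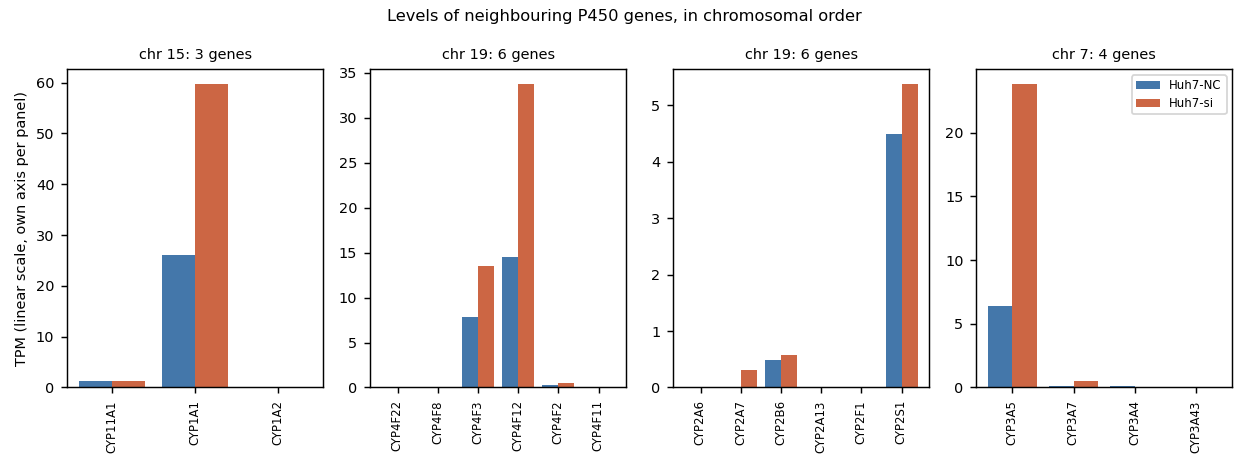
TPM of P450 genes that lie within 500 kb of a neighbour, in chromosomal order, for 4 of the 8 clusters, with 1 library per condition and an axis of its own for each panel. In each of these clusters the 2 most abundant genes held at least 95.05% of the summed TPM in either library.

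In several clusters of neighbouring P450 genes, 1 or 2 genes held nearly all of the transcripts. Within 500 kb of another member lay 32 members, in 8 clusters. In the CYP3A cluster, CYP3A5 held 95.8% of the summed TPM in Huh7-NC and 97.7% in Huh7-si, as the sum moved from 6.69 to 24.4 TPM. CYP1A1 held 95.5% and 97.9% of its cluster with CYP11A1 and CYP1A2. CYP4F12 and CYP4F3 together held 98.5% and 98.8% of the 6 CYP4F genes, whose sum was 22.7 and 47.8 TPM. CYP2S1 held 90.4% and 85.8% of the cluster of CYP2A, CYP2B6 and CYP2F1 genes, with sums of 4.98 and 6.26 TPM. The Huh7-si sum includes 0.31 TPM of CYP2A7 that rests on 2 reads. The 2 CYP26 genes on chromosome 10 were less uneven, CYP26A1 holding 77.8% and 69.7% of 0.36 and 0.33 TPM. These shares rest on 5 and 2 reads of CYP26A1 and 5 and 5 reads of CYP26C1. The cluster of CYP4A, CYP4B1, CYP4X1 and CYP4Z1 genes on chromosome 1 had 0 and 0.03 TPM in all.

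The fatty acid and eicosanoid group held 12 members, of which 9 had reads and 5 had at least 10. CYP4F12 was higher and 0 were lower. The summed level was 32.1 TPM in Huh7-NC and 58.6 TPM in Huh7-si, a ratio of 1.83, and by summed CPM the ratio was 1.70. The median log2 fold change of the 5 was 0.44, the same as over the 29 members with at least 10 reads.

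CYP4F12, a hydroxylase of fatty acids and antihistamines on chromosome 19 (chr19:15672757-15697174, plus strand), had 410 reads in the control and 879 in the knockdown (14.6 and 33.7 TPM). It was higher by a log2 fold change of 1.15 (0.98 to 1.32, exact binomial p = 2.8e-43). TMM scaling took it to 0.92, under the threshold, and subtraction of the median of like-length genes left 1.11. CYP4F3, which inactivates leukotrienes by hydroxylation of their ends, had 361 and 593 reads (7.80 and 13.5 TPM). Its log2 fold change was 0.77 (0.57 to 0.96), short of the fold threshold. CYP4F3 transcripts are long, at 5053 bases, and 0.35 was left after subtraction of the median of like-length genes. Their neighbours CYP4F2, CYP4F8 and CYP4F22 had 2 and 5, 0 and 2.46, and 2 and 1 reads.

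CYP2J2, which makes epoxides of arachidonic acid, had 253 reads in the control and 248 in the knockdown (7.94 and 8.95 TPM). Its log2 fold change was 0.02, with an interval of -0.24 to 0.28 that holds no change as large as 1.5-fold in these reads. CYP2U1, a fatty acid hydroxylase, had 24 reads in each library (0.05, -0.83 to 0.93). CYP4V2, the fatty acid hydroxylase that is mutated in Bietti crystalline dystrophy, had 90.1 and 119 reads (1.19 and 1.57 TPM, log2 0.44, 0.04 to 0.86). After subtraction of the median of like-length genes 0.06 was left, and with TMM scaling the value was 0.22. Exons of CYP4V2 overlap those of KLKB1 on the same strand (52.0 and 98.4 reads), which holds 1.54% of the 50-base stretches of CYP4V2 transcripts. CYP4A11 had 0 reads and 1 read.

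The cholesterol and bile acid group was the only one whose summed level was lower in Huh7-si, at 30.1 TPM in Huh7-NC and 22.8 TPM in Huh7-si. The ratio was 0.76 by TPM and 0.70 by summed CPM. Its share of all P450 transcripts was 20.5% and 8.84%. Of its 6 members, 5 had reads, 1 was higher and 0 were lower.

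CYP27A1, the mitochondrial enzyme that hydroxylates the side chain of cholesterol and starts the alternative route to bile acids, made up most of this group. It spans chr2:218781749-218815293 on the plus strand. It had 839 reads in the control and 531 in the knockdown (26.1 and 18.7 TPM). The log2 fold change was -0.61 (-0.77 to -0.45), a ratio of 0.655, which lay below 1 beyond counting error but short of the 2-fold threshold, so it was not called. It was the only member with at least 10 reads whose interval lay wholly below 0. The value was -0.84 with TMM scaling, -0.65 relative to genes of like length and -0.49 on the TPM scale, so the direction was kept in each. At a fold threshold of 1.5 it passed as lower.

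CYP39A1, which hydroxylates oxysterols on the way to bile acids, had 166 reads in the control and 148 in the knockdown, with a log2 fold change of -0.12 (-0.45 to 0.21) that turned to 0.05 on the TPM scale. CYP46A1, the cholesterol hydroxylase of neurons, had 0 and 5 reads and was called higher. Its interval on the log2 scale reached down to -0.08, so these reads also allow no change. CYP7B1 and CYP8B1, further hydroxylases of bile acid synthesis, had 7 and 2 reads and 1 and 2 reads.

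The steroid hormone group was low throughout, at 2.38 TPM in Huh7-NC and 3.55 TPM in Huh7-si, and 0 of its 6 members were higher or lower. By summed CPM its ratio was 1.07, against 1.49 by TPM. CYP11A1, which cleaves the side chain of cholesterol in mitochondria, had 42 and 37.6 reads (1.22 and 1.28 TPM, log2 -0.11, -0.77 to 0.57). CYP19A1, the aromatase that makes estrogens, had 19 and 16 reads (log2 -0.20, -1.25 to 0.84), although its TPM moved from 0.78 to 1.40. CYP21A2, the adrenal hydroxylase that is deficient in most congenital adrenal hyperplasia, had 11.7 and 22.6 reads. Its fold was 2.01 (log2 interval -0.08 to 2.13, exact binomial p = 0.062), and summed with its pseudogene CYP21A1P, which shares 33.2% of its 50-base stretches, the log2 value was 0.76 (-0.08 to 1.60). CYP17A1 had 1.21 reads and 0 reads.

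The 3 vitamin D genes all had at least 10 reads, and 0 of them were called. CYP2R1, which makes the circulating form of vitamin D in the liver, was the most abundant, with 251 reads in the control and 287 in the knockdown (7.56 and 11.5 TPM, log2 0.24, -0.01 to 0.49). CYP24A1, which inactivates the hormone, had 29 and 28 reads (0.00, -0.80 to 0.80). CYP27B1, which makes the active hormone, had 61 and 48 reads (-0.30, -0.87 to 0.27), while its TPM moved from 1.56 to 3.07. Its exons overlap those of METTL1 on the same strand (1088 and 844 reads), which holds 1.77% of the 50-base stretches of CYP27B1 transcripts.

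The retinoid group held 4 members, of which 0 were called. Its level nevertheless moved from 19.8 to 45.2 TPM, nearly all of it from CYP26B1. The group's ratio was 2.28 by TPM and 1.76 by summed CPM. CYP26B1, which breaks down retinoic acid, lies at chr2:72129238-72148038 on the minus strand and was the member with the most reads. It had 1376 reads in the control and 2344 in the knockdown (19.4 and 44.7 TPM), with a log2 fold change of 0.82 (0.72 to 0.92), a fold of 1.76. Relative to genes of like length (4556 bases), 0.44 was left, while on the TPM scale the value was 1.20, past the 2-fold threshold. The related CYP26A1 had 5 and 2 reads and CYP26C1 had 5 and 5 reads. CYP27C1, which desaturates retinol, had 3 and 9 reads (log2 1.63, -0.37 to 4.16).

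Of the 6 less characterised members, 4 had reads, 1 was higher and 0 were lower. CYP2W1, known from fetal gut and from tumors, had 4 reads in the control and 19 in the knockdown and was higher (log2 2.30, 0.71 to 4.31, exact binomial p = 0.0013). On the TPM scale it moved less, from 0.51 to 1 TPM (log2 0.97). CYP20A1, whose substrate is not established, had 314 and 331 reads (10.3 and 12.7 TPM, log2 0.12, -0.10 to 0.35). CYP2S1, an extrahepatic form, had 209 and 213 reads (4.50 and 5.37 TPM, log2 0.08, -0.21 to 0.36). For both, the sign turned under TMM scaling, to -0.10 and -0.15. CYP2A7 had 0 and 2 reads.

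Changes on the deposited TPM scale were mostly shifted upward from those of the reads, so that rises tended to be larger and falls smaller. Across the 12980 genes with at least 100 reads over both libraries and a TPM above 0 in each, the log2 change of TPM exceeded that of CPM by a median of 0.18 (5th to 95th percentile -0.15 to 0.51). Among the 29 members it exceeded it in 23. The largest excess was that of CYP27B1 (1.27), followed by CYP19A1 (1.04) and CYP3A5 (0.66). CYP2W1 lay farthest on the other side (-1.33). By TPM, 11 of the 29 members were past a 2-fold rise and 0 past a 2-fold fall. The share of all genes past a 2-fold change by TPM was not computed, and the upward shift was not limited to the members. CYP39A1, CYP11A1, CYP19A1 and CYP27B1 were above 0 by TPM and below 0 by CPM. How the lengths behind the TPM values were set is not given in the sources used here.

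**Figure D4:**
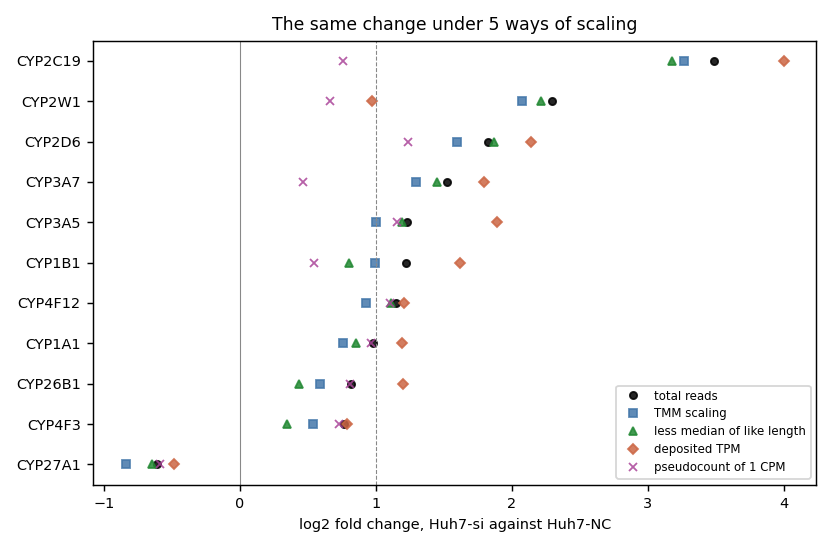
Log2 fold change of 11 P450 genes under 5 ways of scaling, namely total reads, TMM, total reads relative to like-length genes, the deposited TPM, and a pseudocount of 1 CPM added to both libraries; the dashed line marks a 2-fold change. CYP2D6, CYP3A5 and CYP4F12 stay near or past the line under each, CYP2C19 drops to under 1 with the pseudocount, and CYP27A1 stays below 0.

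The electron donors of these enzymes were called in neither direction. Of 13 redox partner genes, all with reads, 0 were higher and 0 lower, where 13.0% and 1.19% of all genes with at least 10 reads were. Their median log2 fold change was -0.29, with 8 intervals wholly below 0 and 1 wholly above it, while their summed level was 865 TPM in Huh7-NC and 789 TPM in Huh7-si. POR, the reductase that serves all P450 enzymes of the endoplasmic reticulum, had 4389 and 4010 reads (128 and 124 TPM, log2 -0.08, -0.14 to -0.02). CYB5A, the main cytochrome b5 of the endoplasmic reticulum, had 1539 and 944 reads (-0.66, -0.77 to -0.54). The mitochondrial donors FDX1 and FDXR, which serve CYP27A1 and CYP11A1, had 176 and 113 reads (-0.59, -0.94 to -0.24) and 193 and 134 reads (-0.48, -0.81 to -0.15). CYB5RL, a gene of the cytochrome b5 reductase family, had 189 and 302 reads (0.73, 0.46 to 0.995).

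Of 31 transcription factors and partners known to act on P450 genes, 2 were higher and 0 lower, beside 13.0% and 1.19% of all genes with at least 10 reads, with a median log2 fold change of 0.04. Both belong to the aryl hydrocarbon receptor system. CYP1A1 and CYP1B1 are among the known targets of that receptor, but whether AHR or AHRR had a part in their values was not tested. AHR, the receptor, had 735 reads in the control and 1505 in the knockdown (7.55 and 19.1 TPM, log2 1.08, 0.95 to 1.21). TMM scaling brought the value to 0.86 and subtraction of the median of like-length genes to 0.65, both under the threshold. AHRR, its repressor, had 0 and 32 reads, and its log2 interval began at 3.08 with no upper end. TIPARP, another known target of the receptor, had 390 and 422 reads (0.16, -0.04 to 0.37) and was not called. Of the receptors that bind drugs, NR1I2 (PXR) had 107 and 133 reads (0.36, -0.02 to 0.74) and NR1I3 (CAR) had 33.9 and 31.5 reads (-0.06, -0.78 to 0.70), so neither was called. The hepatocyte factor CEBPA had 11601 and 7249 reads (-0.63, -0.67 to -0.59), while HNF4A had 6766 and 6288 reads (-0.06, -0.11 to -0.01), and neither passed the fold threshold. Short of it too were PROX1, with 1632 and 2986 reads (0.92, 0.83 to 1.01), and NR1H4, with 2319 and 1515 reads (-0.57, -0.66 to -0.47). Over the 31 regulators, 11 intervals lay wholly above 0 and 10 wholly below it.

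**Figure D5:**
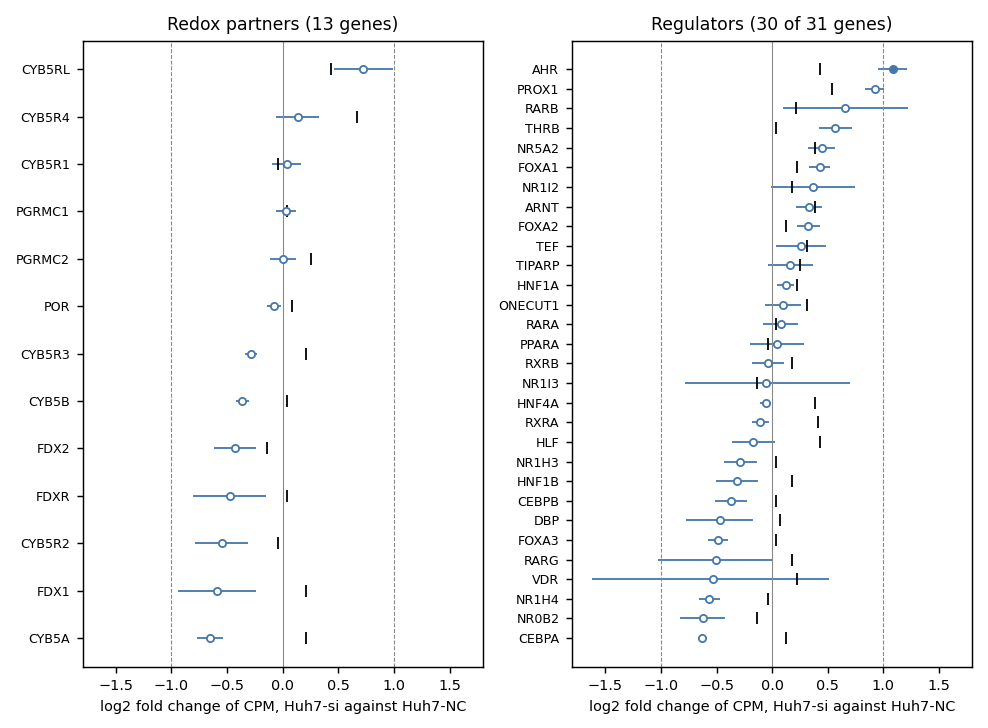
Log2 fold change of CPM in Huh7-si against Huh7-NC for the 13 redox partners and 30 of the 31 regulators, with 95% Clopper-Pearson intervals, dashed lines at a 2-fold change and black ticks at the median change of genes of like length; AHRR, with 0 reads in Huh7-NC, has no finite ratio and is not drawn. AHR is the only filled point, and most redox partners lie left of 0.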

How the data were processed

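RNA-seq data of 2 Huh7 libraries, 1 per condition, were analyzed, grouped by the labels. The authors deposited, for each of 61541 genes, an estimated count of reads and a TPM value. The authors also deposited the ratio (fold) of the libraries, its log2 value and the p-value of their own comparison with its adjusted form, which were not used. All columns that hold a value per sample were used. The submitters' processing notes name TopHat2 2.0.12, Bowtie2 2.0.6 and GRCh37. The counting tool, annotation and strandedness are not given in the sources used here.

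Estimated counts were rounded to whole numbers for tests. CPM was the count per 1000000 of the summed counts of the library. The two-sided exact binomial test was run over all 26379 genes with reads, with the share expected from the library totals, and members were read from that table. Genes with reads in a single library passed the fold threshold of 2. Medians used a pseudocount of 0.5 reads and genes with at least 10 reads over both libraries. Genes of like length were those of the same of 20 length bins. A shared 50-base stretch is one that also occurs in a transcript of another gene. Every member with at least 10 reads was named with its values, except 1 that is counted but not reported here, members with fewer reads were named where their subfamily or role has named members, and redox partners and regulators were named if called, with others chosen after their values were seen. The members, role groups and gene lists were chosen with earlier results of these data known. The test was checked on simulated reads with counting error only and with changes placed in genes with many reads. That check does not cover spread between cultures or changes in genes with few reads.

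Positions and transcripts came from GENCODE release 29 (GRCh38), which holds 94.8% of the gene identifiers, and promoters from RefSeq (GRCh38.p14), matched by symbol for 38 of 54 members. Protein sequences were not analysed here. Alternatives were TMM and median-of-ratios scaling, the change less the median of like length, TPM, an assumed coefficient of variation of 0.4 in edgeR's exact test, a pseudocount of 1 CPM, a fold threshold of 1.5 and a minimum of 10 reads in each library. Sums with a near copy were added after seeing the data. Python 3.11.15 (NumPy 2.4.6, pandas 2.3.3, SciPy 1.17.1, matplotlib 3.10.9, Biopython 1.88) and R 4.3.3 (edgeR 4.0.16 and DESeq2 1.42.0, for scaling and alternatives only) were used.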

Additional observations from a re-analysis of the deposited data

How the results depend on the processing

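With 1 library per condition no value has a biological error, leaving out a library was not possible, and depth limits the members under 10 reads. No paired analysis was possible because each condition had 1 library and the labels carry no replicate numbers. The count of 9 higher P450 genes became 5 with TMM and 5 with median-of-ratios scaling, 1 with a coefficient of variation of 0.4, 3 with a pseudocount of 1 CPM (CYP2D6, CYP3A5 and CYP4F12), 5 where each library had to hold at least 10 reads, and 12 at a fold of 1.5. The share of all genes called was computed under the main setting only. The counts under other settings in this paragraph therefore have no matching share to be set against. The count of 0 lower became 1 relative to genes of like length (CYP7B1) and 1 at a fold of 1.5 (CYP27A1). At a fold of 1.5 the redox partners had 1 higher and 2 lower, and the regulators 4 higher and 2 lower. The 2 higher regulators became 1 with TMM scaling, median-of-ratios scaling, like length, the coefficient of variation of 0.4 or where each library had to hold 10 reads. The median P450 log2 fold change of 0.44 was 0.22 with TMM, 0.24 with median of ratios, 0.32 relative to like length, 0.79 by TPM and 0.32 with a pseudocount of 1 CPM. These values cannot be set against the all-gene median of 0.21, which was taken with total reads. TMM scaling lowers that median by the same 0.22 as the P450 median. BRF2 was at -1.59 by TPM.

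Among the 148 values of single P450 genes under the alternatives, 19 turned sign. With TMM scaling, median-of-ratios scaling and like length, CYP2J2 was at -0.20, -0.19 and -0.015, CYP2U1 at -0.18, -0.16 and -0.33, CYP26C1 at -0.18, -0.16 and -0.13, and CYP2S1 at -0.15, -0.13 and -0.046. CYP20A1 was at -0.10 with TMM and -0.083 with median of ratios. By TPM, CYP39A1 was at 0.051, CYP11A1 at 0.069, CYP19A1 at 0.84 and CYP27B1 at 0.98. CYP3A7 summed with its readthrough gene, an alternative chosen after seeing the data, was at -0.27. The cause was not tested.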

Other observations

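Some relatives of the P450 genes carry other symbols or fell outside the rule. CYP51A1, which removes a methyl group from lanosterol in cholesterol synthesis, was more abundant in Huh7-NC than any member, with 3306 reads in the control and 2801 in the knockdown (59.3 and 60.1 TPM, log2 fold change -0.19, 95% interval -0.26 to -0.12). PTGIS, the prostacyclin synthase, had 41 and 59.1 reads (0.58, -0.03 to 1.19), and TBXAS1, the thromboxane synthase, had 21 and 12 reads (-0.76, -1.92 to 0.33). None of these passed the fold threshold.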
